A study of Homo sapiens with 2 samples.

Results

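The cytosolic heat shock chaperones described here are 10 genes taken by symbol from a deposited table of 23608 gene rows: HSP90AA1, HSP90AB1, HSPA8, HSPA1A, HSPA1B, HSPA4, HSPH1, HSPB1, DNAJA1 and DNAJB1. All 10 symbols had 1 row each. The table compares ribosome profiling, which recovers RNA fragments covered by ribosomes, with RNA sequencing of total RNA. Both libraries came from SW13, a line from a human adrenal adenocarcinoma, 48 hours after transfection with plasmids for the murine non-coding RNAs Mhrt779 and Hotair (Add2-Mhrt779 and Add2-Hotair). Each assay had 1 library and both groups carried the plasmids, so the comparison is between assays and not between transfected and other cells.

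These proteins form a relay that folds other proteins in the cytosol and nucleus. J-domain proteins bring unfolded clients to HSP70 and start its ATP hydrolysis, HSP110 proteins release the spent nucleotide so that the client leaves, and HSP90 finishes the folding of clients such as kinases and steroid receptors. Small heat shock proteins hold unfolded proteins without ATP. Heat shock factor 1 (HSF1) switches many of these genes on under stress, while HSPA8 and HSP90AB1 are abundant in unstressed cells.

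Of the 10 genes, 8 had a short form of the heat shock element, the site HSF1 is known to bind, in at least 1 listed promoter. The motifs searched were GAANNTTC and TTCNNGAA, each of which reads the same on both strands, and the 2 can overlap. Either one was present in 13.5% of 35116 promoter windows of 300 bases in RefSeq (GRCh38.p14), and in 9 of the 15 windows of these genes. No match was found in the windows of HSPA4 and HSPH1. Stretches of 60 bases before the transcription start are shown for 5 of the genes, with the motif letters in capitals. HSPA1A and HSPA1B carry the same element, HSP90AA1 has overlapping elements, and DNAJB1 has a pair of separate ones.
HSP90AA1, chr14:102087089-102087148, minus strand: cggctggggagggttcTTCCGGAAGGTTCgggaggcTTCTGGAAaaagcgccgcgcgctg
HSPA8, chr11:123062323-123062382, minus strand: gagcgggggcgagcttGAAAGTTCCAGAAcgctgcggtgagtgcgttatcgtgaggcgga
HSPA1A, chr6:31815421-31815480, plus strand: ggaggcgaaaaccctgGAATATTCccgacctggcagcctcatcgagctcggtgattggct
HSPA1B, chr6:31827617-31827676, plus strand: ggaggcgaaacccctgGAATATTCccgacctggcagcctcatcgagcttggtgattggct
DNAJB1, chr19:14518431-14518490, minus strand: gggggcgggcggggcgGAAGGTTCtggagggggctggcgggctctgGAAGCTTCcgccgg

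Values are FPKM, fragment numbers that the authors normalised to transcript length and library size. In ribosome profiling 11423 rows were above 0, against 13990 in RNA sequencing. Ratios are on the log2 scale, with 1 FPKM added to each value and ribosome profiling on top. From each ratio the median of 2734 tested genes, those with a mean of at least 10 FPKM, was taken off, and folds are relative to that median gene. Low FPKM values moved in steps, from which 1 fragment was worth 1.56 times as much FPKM in ribosome profiling as in RNA sequencing. The fragment numbers given below are estimates from those steps and from transcript lengths in another annotation, GENCODE 29. Their 95% intervals (exact binomial) cover counting error only and hold no spread between cultures or library preparations. All 8 adrenal cortex markers looked up, among them NR5A1 and STAR, were listed at 0 in both libraries, and so do not bear the adrenal label out, although a listed 0 need not mean absence: HYPK and HSPB11, which many tissues express, were listed at 0 as well. VIM, a mesenchymal filament protein, had 707 FPKM in ribosome profiling and 490.2 FPKM in RNA sequencing. The epithelial keratins KRT18 and KRT8 had 138.8 and 69.7 FPKM in ribosome profiling and 57.2 and 41.9 FPKM in RNA sequencing. EPCAM, the other epithelial marker looked up, was listed at 0 in both libraries. SMARCA4, a chromatin remodelling ATPase that SW13 cells are known to lack, had 0.68 FPKM in ribosome profiling and 3.99 FPKM in RNA sequencing.

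All 10 genes passed the expression filter. By the ratio of ribosome profiling to RNA sequencing, 7 of the 10 lay above the median gene and 3 below. Of tested genes 50.0% lie above by construction, and 51.5% of protein-coding ones did. At least 2-fold above the median gene were 2 of the 10, DNAJA1 and HSPB1, against 13.1% of all 2734 genes and 9.92% of 2157 protein-coding ones. At least 2-fold below was 1 of the 10, DNAJB1, against 19.7% of all genes and 14.8% of protein-coding ones. None was 4-fold or more away in either direction, where 4.86% of all genes lay that far above and 9.80% that far below. The median of the 10 was 1.35-fold above the median gene, a log2 ratio of 0.44, while the median of 2157 tested protein-coding genes was 0.037. Beside these shares, with 10 genes, nothing particular to the chaperones is read from the counts. The counts depend on which genes set the median: with a filter of 1 FPKM, which adds low genes and lowers the median, 5 of the 10 were at least 2-fold above, against 15.5% of the genes tested. Their ratios spread over 8.26-fold between the lowest and the highest.

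**Figure D1:**
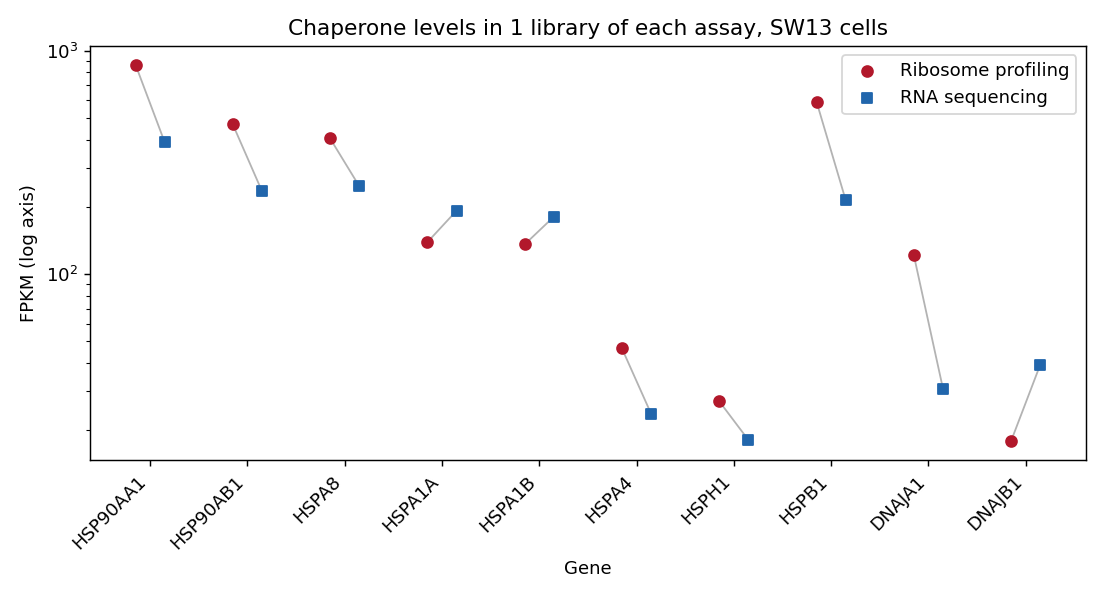
FPKM of each chaperone (log axis) in the ribosome profiling library (circles, left of each pair) and the RNA sequencing library (squares, right), 1 library each with no error bar. The circle is above the square in 7 genes and below it in HSPA1A, HSPA1B and DNAJB1.

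The HSP90 genes were the most abundant of the group in ribosome profiling together with HSPB1. HSP90AA1, the stress-inducible cytosolic HSP90, had 866 FPKM in ribosome profiling and 389 FPKM in RNA sequencing, from about 1590 and 1115 fragments. It ranked 17 of 2157 protein-coding genes in ribosome profiling and 49 in RNA sequencing, and its ratio was 1.70-fold above the median gene. HSP90AB1, the constitutive cytosolic HSP90, had 468 FPKM in ribosome profiling and 235 FPKM in RNA sequencing, a ratio 1.52-fold above the median gene. The counting intervals of these log2 ratios overlapped, from 0.65 to 0.88 for HSP90AA1 and from 0.44 to 0.77 for HSP90AB1. HSP90AA1 over HSP90AB1 stood at 1.85 in ribosome profiling and 1.66 in RNA sequencing, so the first gene was higher in both libraries.

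For HSP90AA1 the authors' deposited table has a log2 ratio of 1.15 (standard error 1.49), and for HSP90AB1 one of 0.99 (standard error 0.52). The HSP90AA1 row spans chromosome 14 from 102547075 to 102606086 in hg19, and HSP90AB1 spans chromosome 6 from 44213903 to 44221625. Their GENCODE coding sequences have an identity of 75.95% over 2175 aligned bases, and no 30-base stretch of the HSP90AA1 coding sequence recurs in that of HSP90AB1. HSP90AB4P, a listed pseudogene that may take reads from HSP90AB1, had 11.5 FPKM in ribosome profiling and 6.12 FPKM in RNA sequencing.

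The HSP70 genes went in different directions. HSPA8, the constitutive HSP70 that also uncoats clathrin vesicles, had 405 FPKM in ribosome profiling and 248 FPKM in RNA sequencing, 1.25-fold above the median gene. HSPA1A, the classical heat-inducible HSP70, had 139 FPKM in ribosome profiling and 192 FPKM in RNA sequencing, 1.81-fold below the median gene. HSPA1B, its neighbouring copy, had 136 FPKM in ribosome profiling and 181 FPKM in RNA sequencing, 1.74-fold below. The inducible pair was thus lower in ribosome profiling by its deposited values, while the constitutive gene was higher. Scaling the libraries to the FPKM sum outside small RNA genes, without centring, moves every gene up nearly alike, so that 55.8% of tested genes lay at least 2-fold above. The log2 ratios were then 0.30 for HSPA1A, 0.35 for HSPA1B and 1.47 for HSPA8, with the pair still below HSPA8.

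Summed, HSPA1A and HSPA1B had 275 FPKM in ribosome profiling and 373 FPKM in RNA sequencing. HSPA8 over that sum was 1.47 in ribosome profiling and 0.66 in RNA sequencing. Reads that match both copies may be counted in each row, so which was the more abundant in RNA sequencing is not known. Against each copy alone, HSPA8 was higher in both libraries. The counting interval of the log2 ratio ran from 0.14 to 0.50 for HSPA8 and from -1.12 to -0.60 for HSPA1A, without overlap. The model error of the authors is far wider: HSPA8 minus HSPA1A was 1.18 in the log2 ratio of the authors' deposited table, with a 95% interval from -2.14 to 4.49.

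Most short coding fragments cannot be assigned to HSPA1A or HSPA1B. Their coding sequences differ at 4 of 1926 bases and encode identical proteins of 641 residues, and 95.7% of the 30-base coding stretches of HSPA1A occur in HSPA1B. The untranslated ends, which differ in length, were not compared. The 2 rows lie on an alternative haplotype of chromosome 6 in hg19 (qbl_hap6), from 3076938 to 3079366 and from 3089163 to 3091686. Both have the status NOTEST in the authors' deposited table. How reads matching both copies, or other haplotypes, were divided is not given in the sources used here, so their levels are uncertain. The first 120 coding bases are shown because they make this plain, with capitals where a base differs from HSPA1A. HSPA1B has no difference in this stretch and HSPA8 has 29.
HSPA1A: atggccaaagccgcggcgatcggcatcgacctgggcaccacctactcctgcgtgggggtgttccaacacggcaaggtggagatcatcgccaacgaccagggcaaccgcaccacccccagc
HSPA1B: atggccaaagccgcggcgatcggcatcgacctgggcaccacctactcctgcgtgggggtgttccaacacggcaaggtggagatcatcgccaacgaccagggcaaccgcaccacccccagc
HSPA8: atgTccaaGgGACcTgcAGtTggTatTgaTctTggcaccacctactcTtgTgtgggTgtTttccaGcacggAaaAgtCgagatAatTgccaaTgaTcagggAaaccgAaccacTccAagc

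HSPA8 has an identity of 73.9% with HSPA1A over 1926 aligned coding bases and shares none of the 30-base stretches, so its row, on chromosome 11 from 122928200 to 122932901, is not subject to that overlap. Among further HSP70 rows, HSPA6, a strictly heat-inducible form, had 0.71 FPKM in ribosome profiling and 1.58 FPKM in RNA sequencing, below the filter. HSPA1L, next to HSPA1A, had 3.33 FPKM in ribosome profiling and 12.8 FPKM in RNA sequencing. Of its coding sequence some is shared: 6.17% of the 30-base stretches of HSPA1A occur in HSPA1L.

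The HSP110 genes, HSP70 relatives that act as nucleotide exchange factors, were the least abundant of the 10 in RNA sequencing, and in ribosome profiling DNAJB1 alone was lower. HSPA4 had 46.5 FPKM in ribosome profiling and 23.7 FPKM in RNA sequencing, 1.47-fold above the median gene, from about 124 and 99 fragments. HSPH1, the heat-inducible one, had 27.0 FPKM in ribosome profiling and 18.1 FPKM in RNA sequencing, 1.12-fold above, from about 78 and 81 fragments. Their counting intervals overlapped, from 0.19 to 0.97 for HSPA4 and from -0.27 to 0.67 for HSPH1, and the second includes the median gene. HSPA4 lies on chromosome 5 from 132387662 to 132440709 and HSPH1 on chromosome 13 from 31710763 to 31736117.

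The largest contrast within the group was between the J-domain proteins. DNAJA1, a farnesylated partner of HSPA8, had 122 FPKM in ribosome profiling and 30.7 FPKM in RNA sequencing, 2.96-fold above the median gene. DNAJB1, the heat-inducible partner of HSPA1A, had 17.9 FPKM in ribosome profiling and 39.3 FPKM in RNA sequencing, 2.79-fold below. DNAJA1 over DNAJB1 was 6.80 in ribosome profiling and 0.78 in RNA sequencing. DNAJB1 was therefore the higher of the pair in total RNA and the lowest of all 10 genes in ribosome profiling.

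The DNAJA1 values rest on about 153 fragments in ribosome profiling and 60 in RNA sequencing, and the DNAJB1 values on about 21 and 73. The counting interval of the log2 ratio ran from 1.16 to 2.06 for DNAJA1 and from -2.32 to -0.83 for DNAJB1. That of DNAJB1 includes 2-fold below. Among protein-coding genes the ratio of DNAJA1 ranked 69 from the top and that of DNAJB1 1986, of 2157. By the log2 ratios of the authors' deposited table, DNAJA1 exceeded DNAJB1 by 3.12, and the 95% interval from both standard errors ran from 0.61 to 5.64. Of the 5 pairs compared in this way, this was the only one whose interval did not include 0, with no adjustment for the number of pairs. DNAJA1 lies on chromosome 9 from 33025209 to 33039062 and DNAJB1 on chromosome 19 from 14625582 to 14629201.

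HSPB1, the small heat shock protein HSP27, had 592 FPKM in ribosome profiling and 214 FPKM in RNA sequencing, 2.10-fold above the median gene. It stood at place 2 of the 10 in ribosome profiling and at place 4 in RNA sequencing. Its row, on chromosome 7 from 75931875 to 75933614, has the shortest transcript of the group at 909 bases, so its high FPKM came from only about 242 and 137 fragments. The counting interval of its log2 ratio, 0.77 to 1.39, includes 2-fold. The 9 other genes looked up in the small heat shock protein list, CRYAB and HSPB8 among them, were listed at 0 in both libraries. A listed 0 need not mean absence.

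**Figure D2:**
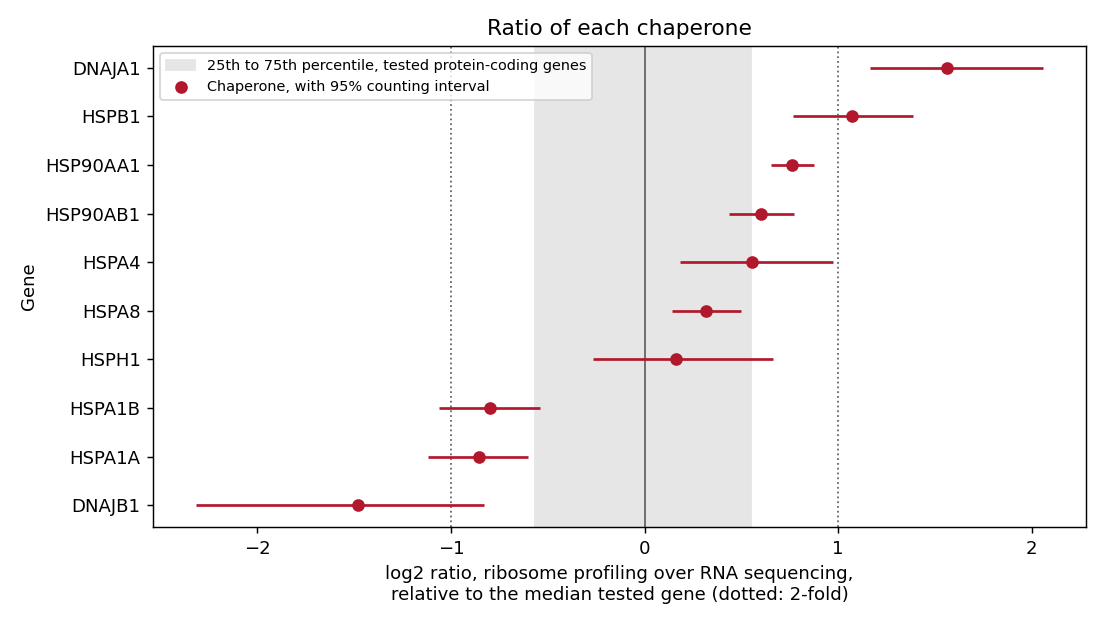
Log2 ratio (ribosome profiling on top) of each chaperone relative to the median tested gene, ordered from highest to lowest. Bars are 95% counting intervals from estimated fragments and the band spans the 25th to 75th percentile of tested protein-coding genes. DNAJA1 and HSPB1 lie past 2-fold above and DNAJB1 past 2-fold below. HSP90AA1, HSP90AB1 and, by little, HSPA4 lie above the band, and HSPA1A and HSPA1B lie below it. The bars of HSPB1, HSPA1A, HSPA1B and DNAJB1 cross 2-fold.

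In the order of ratios, from DNAJA1 through HSPB1, HSP90AA1, HSP90AB1, HSPA4, HSPA8 and HSPH1 to HSPA1B, HSPA1A and DNAJB1, neighbours overlapped in their counting intervals with 1 exception. The gap lay between HSPH1, whose interval began at -0.27, and HSPA1B, whose interval ended at -0.54. The 10 genes together had 2819 FPKM in ribosome profiling and 1572 FPKM in RNA sequencing, 1.88% and 1.18% of the FPKM of tested protein-coding genes. HSP90 made up 47.3% of the group's FPKM in ribosome profiling and 39.7% in RNA sequencing. The HSP70 genes made up 24.1% in ribosome profiling and 39.5% in RNA sequencing, and HSPB1 21.0% and 13.6%. These sums and shares add HSPA1A and HSPA1B as separate rows, although reads that match both may be counted in each.

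By the authors' deposited table none of the 8 chaperones with the status OK was called, where 1.30% of 4849 rows with that status were called. HSPA1A and HSPA1B have the status NOTEST there and were not called either. DNAJA1 had the lowest q-value there, 0.292, with a log2 ratio of 1.99 and a standard error of 0.92, and it was the only one of the 10 with an unadjusted p under 0.05. For HSPB1 the authors' deposited table gave 1.46 with a standard error of 1.07, and for DNAJB1 -1.14 with a standard error of 0.89. For HSPA4 and HSPH1 it gave 0.97 and 0.58, with standard errors of 0.94 and 0.91 in the authors' deposited table. A standard error here is the deposited ratio over its statistic, a model error from 1 library per assay, and a missed threshold does not show that the levels were alike.

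**Figure D3:**
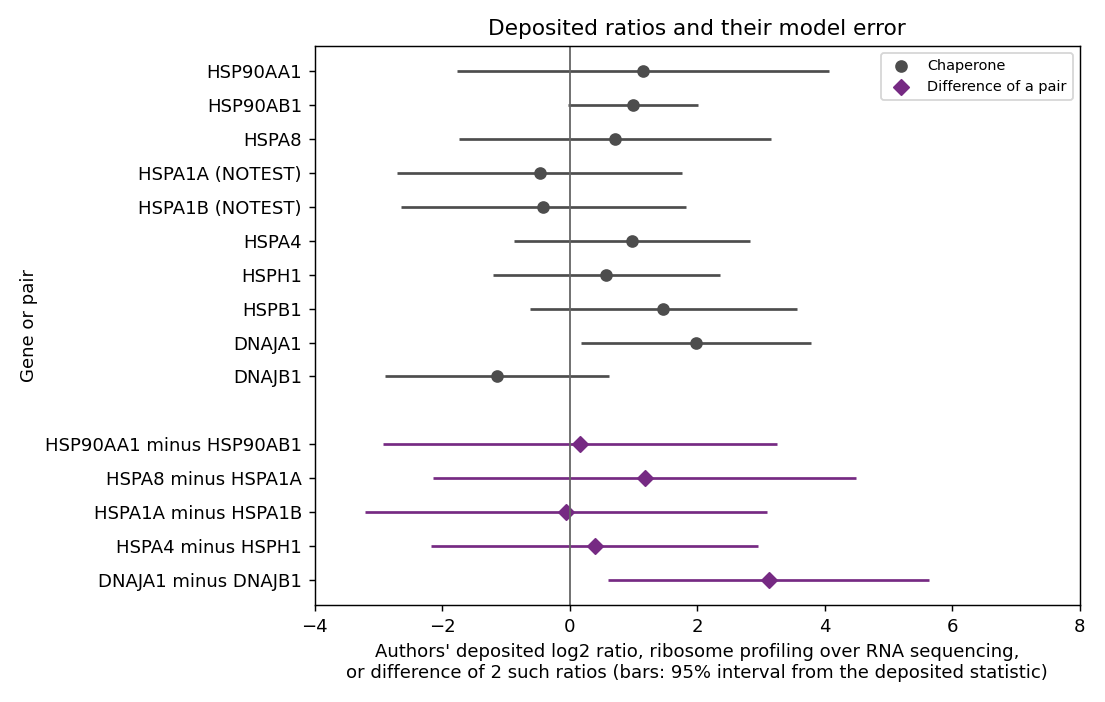
Log2 ratio of each chaperone in the authors' deposited table (circles) and differences between 5 pairs (diamonds), with 95% intervals from the deposited statistic. The intervals of DNAJA1 and of DNAJA1 minus DNAJB1 lie above 0 and the other 13 include it, and HSPA1A and HSPA1B have the status NOTEST.

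The coding share differs between these transcripts, and its part in the ratios was not tested. Ribosomes cover coding sequence, while FPKM divides by the whole transcript. In GENCODE 29 the coding share of the principal transcript was 81.3% for HSP90AB1, 78.8% for HSPA8, 77.6% for HSPA1A, 50.1% for DNAJA1, 49.6% for HSPH1 and 45.2% for DNAJB1, against a median of 54.3% over 2157 genes. Across those genes the ratio and the coding share had a Spearman correlation of 0.084, a description over genes that share both libraries. With ribosome profiling set per coding length, a setting added after seeing the data, DNAJA1 had a log2 ratio of 1.60 and DNAJB1 of -1.33. HSPA8 then had -0.29 and HSP90AB1 -0.051, on the other side of the median gene from their main values. HSPA1A and HSPA1B had -1.44 and -1.36, past 2-fold below, and HSPB1 had 0.68, no longer past 2-fold.

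The bases around the start codon differ between these genes, and their part in the ratios was not tested. They are shown for both J-domain genes and both HSP90 genes, from 9 bases before the start codon, which is in capitals, to 3 bases after it, as GENCODE 29 gives them. A purine at position -3, counted back from the A of the start codon, stood in 9 of the 10 genes, all but HSP90AB1, and in 91.3% of 2088 tested genes with a long enough leader. A G at position 4, right after the start codon, stood in HSPA1A, HSPA1B, DNAJA1 and DNAJB1, and in 52.8% of those genes. Both the purine and the G stood in 4 of the 10 genes, HSPA1A, HSPA1B, DNAJA1 and DNAJB1, and in 48.3% of those 2088 genes.
DNAJA1: cagtagaagATGgtg
DNAJB1: gagggggtcATGggt
HSP90AA1: ttagccaagATGcct
HSP90AB1: gctcctccgATGcct

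Partners of these chaperones were followed in 6 lists with 88 rows, of which 28 passed the filter. At least 2-fold above the median gene were 2 of the 28, against 13.1% of all tested genes, and at least 2-fold below was 1, against 19.7%, with a median 1.23-fold above. All 11 tested HSP90 co-chaperones lay within 2-fold, with a median 1.31-fold above. Of these 11, 10 lay above the median gene, against 50.0% of all tested genes. Rows of this list under the filter reached further, from FKBP5 at 3.11-fold below to PPID at 1.95-fold above. PIH1D1, just under the filter with a mean of 9.54 FPKM, was 2.75-fold below. PTGES3, the p23 that stabilises client-bound HSP90, had 101 FPKM in ribosome profiling and 62.8 FPKM in RNA sequencing. CDC37, which delivers kinases, had 59.0 FPKM in ribosome profiling and 42.4 FPKM in RNA sequencing. RUVBL2, an ATPase of the R2TP complex, had 64.6 FPKM in ribosome profiling and 41.0 FPKM in RNA sequencing. AHSA1, which stimulates the HSP90 ATPase, was the highest of the 11 tested at 1.81-fold above, and TOMM34 the lowest at 1.03-fold below.

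Of 15 other HSP70 partners and 22 other J-domain proteins, 4 each passed the filter, and these 8 lay within 2-fold. Of all tested genes, 13.1% lay at least 2-fold above and 19.7% at least 2-fold below. Rows under the filter reached further, such as DNAJC5, a synaptic vesicle J-domain protein, at 4.93-fold below. BAG6, which has the status NOTEST in the authors' deposited table, had 43.0 FPKM in ribosome profiling and 36.9 FPKM in RNA sequencing. ST13, the HSP70-interacting protein HIP, had 25.4 FPKM in ribosome profiling and 15.4 FPKM in RNA sequencing. BAG3, a stress-inducible exchange factor, was the lowest of the 4 tested HSP70 partners at 1.17-fold below the median gene, and HSPA13 the highest at 1.90-fold above. Among 4 tested J-domain genes, DNAJB6, a suppressor of polyglutamine aggregation, had 47.0 FPKM in ribosome profiling and 39.2 FPKM in RNA sequencing, 1.09-fold below. DNAJA2, the relative of DNAJA1, had 19.8 FPKM in ribosome profiling and 7.99 FPKM in RNA sequencing, 1.76-fold above, and DNAJC8 was the highest at 1.87-fold above.

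HSF1 itself was the only heat shock factor or regulator past the filter. It had 8.43 FPKM in ribosome profiling and 24.7 FPKM in RNA sequencing, 3.57-fold below the median gene. HSF2 had 4.99 FPKM in ribosome profiling and 9.55 FPKM in RNA sequencing, under the filter. Of 8 tested prefoldin and nascent chain genes 2 were at least 2-fold above, against 13.1% of all tested genes. None was at least 2-fold below, against 19.7%. The 2 were BTF3L4 at 9.18-fold and PFDN6 at 2.82-fold, and PFDN6 has the status NOTEST in the authors' deposited table. BTF3L4, a relative of the nascent chain factor BTF3, had 64.5 FPKM in ribosome profiling and 4.45 FPKM in RNA sequencing. It was the only gene of the 6 lists called in the authors' deposited table, with a log2 ratio of 3.86, a standard error of 0.64 and q = 1.8e-06. NACA had 122 FPKM in ribosome profiling and 99.5 FPKM in RNA sequencing, and PFDN5 and BTF3 were 1.11-fold and 1.13-fold below the median gene.

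Chaperones looked up in other compartments gave a median of 1.70-fold above the median gene over 7 genes. HSPD1 and HSPE1 among them are not paralogues of the genes described here. Of these 7, 2 were at least 2-fold above, against 13.1% of all tested genes, and 0 at least 2-fold below, against 19.7%. HSPA5, the HSP70 of the endoplasmic reticulum, had 186 FPKM in ribosome profiling and 47.5 FPKM in RNA sequencing, 2.94-fold above. HSP90B1, the HSP90 there, had 272 FPKM in ribosome profiling and 78.9 FPKM in RNA sequencing, 2.61-fold above, though it may share reads with the listed pseudogene HSP90B2P. HYOU1, the HSP110-like protein of that compartment, was 1.05-fold above. The mitochondrial HSP70, HSPA9, had 80.4 FPKM in ribosome profiling and 39.6 FPKM in RNA sequencing, 1.53-fold above. TRAP1, the mitochondrial HSP90, had 11.6 FPKM in ribosome profiling and 10.6 FPKM in RNA sequencing, 1.20-fold below. HSPD1 and HSPE1, the mitochondrial chaperonin and its lid, were 1.70-fold and 1.95-fold above.

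**Figure D4:**
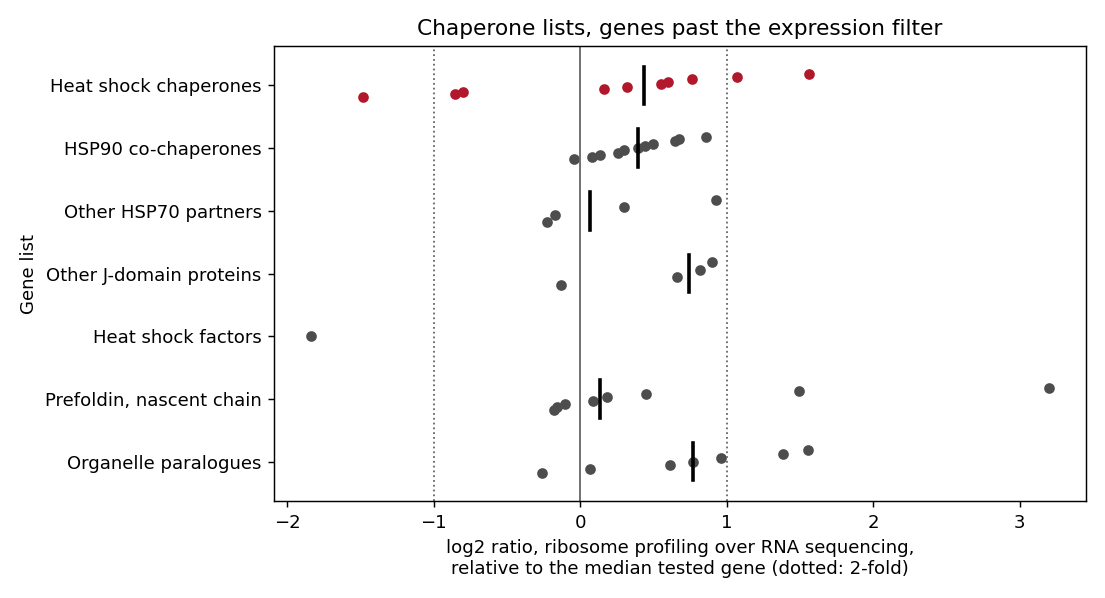
Log2 ratio relative to the median tested gene for the 10 heat shock chaperones and, by list, the partner genes past the expression filter (1 point per gene). Vertical bars are medians of lists with at least 4 genes. The organelle paralogues drawn include HSPD1 and HSPE1, which belong to other chaperone families. The tested HSP90 co-chaperones all lie within 2-fold, HSF1 lies at -1.84 and BTF3L4 at 3.20. Of all tested genes, 13.1% lie at least 2-fold above and 19.7% at least 2-fold below.

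As a guide to these levels, the rows nearest in both libraries to HSP90AA1 were TUBA1B, a tubulin, with 771 FPKM in ribosome profiling and 377 FPKM in RNA sequencing, and HIST2H2AA3, a histone gene. The nearest to HSPB1 were RPS29, a ribosomal protein with 648 FPKM in ribosome profiling and 213 FPKM in RNA sequencing, and the histone gene HIST1H4H. The nearest to HSP90AB1 were the histone gene HIST1H3G and ALDOA, a glycolytic enzyme with 447 FPKM in ribosome profiling and 260.5 FPKM in RNA sequencing. Likeness was the distance between log2(FPKM + 1) values over 2 libraries and carries nothing beyond similar levels.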

How the data were processed

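One ribosome profiling library and 1 RNA sequencing library of transfected SW13 cells were read from both ends at 50 nt, per the labels' protocols. The deposited FPKM values, log2 ratios, statistics, p-values and q-values are the authors' own. Names in the submitters' processing notes, without roles, are bedtools 2.16.1, Bowtie2 2.0.0.6, SAMtools 0.1.18, TopHat2 2.0.8b, hg19 and mm10. The program that wrote the table, its handling of multiply matching reads and any scaling between libraries were not stated there.

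The deposited log2 ratio equalled that of the deposited FPKM values within 0.001 in 100% of 10887 rows. For 100% of 4542 rows the p-value was that of a normal distribution at the authors' statistic, within the same tolerance. The statistic has the opposite sign to the ratio. Deposited starts count from 0 and are given counted from 1.

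Tested genes had a mean of at least 10 FPKM and no FAIL or HIDATA status (2734 genes). The pseudocount of 1 FPKM understates ratios of low genes, and before centring the median gene stood 1.31-fold higher in ribosome profiling. With 1 library per group no test was run, and genes at least 2-fold from the median gene were counted. Total depth is unknown. Of 1011 rows with low values, 37.7% had a ratio within 0.005 on the log2 scale of the step times a quotient of whole numbers up to 3. With 200 nt taken off each transcript length, steps of 1.73 and 1.11 FPKM kb were taken as 1 fragment in ribosome profiling and RNA sequencing. Lengths, coding shares and start contexts come from GENCODE 29 and promoters from RefSeq, both GRCh38. The ratio calculation and the step search within 1 library were tested on simulated data.

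The genes named are all 10 chaperones and, in each list, the 3 most abundant and the ends of the ratio order. Also named are every organelle chaperone looked up and the 2 rows nearest to each of the 3 most abundant chaperones. NR5A1, STAR, VIM, KRT18, KRT8, EPCAM, SMARCA4, HYPK, HSPB11, DNAJC5, HSF2, HSPA6, HSPA1L, PFDN6, CRYAB, HSPB8, FKBP5, PPID, PIH1D1 and the pseudogenes were added after values were seen. The chaperones and lists were chosen with earlier results of these data known. Python 3.11.15, pandas 2.3.3, SciPy 1.17.1 and Biopython 1.88 were used.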

Additional observations from a re-analysis of the deposited data

How the results depend on the processing

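No paired analysis was possible because each assay had 1 library, and for the same reason none could be left out. Over 12 alternatives, 10 of them listed in advance and 2 (protein-coding sum and coding length) added after seeing the data, 197 of 218 recomputed values moved by less than a wide allowance: the deposited standard error of the ratio or difference, the spread of the chaperones for their median, and 1.5 times for counts. Differences between pairs cannot move under another filter or centre, so this tally says little about stability, and HSP90AA1 ranged from 0.43 to 1.92 within it. The log2 ratio of DNAJA1 stayed between 1.39 and 2.72 and that of DNAJA1 minus DNAJB1 between 2.78 and 3.11. Per coding length the signs of HSP90AB1 and HSPA8 changed. The counts of chaperones past 2-fold depend on where the centre is set. With a filter of 1 FPKM, 5 were at least 2-fold above and 0 below, against 15.5% and 19.6% of the genes tested, with HSP90AB1 at 1.15. With no filter there were again 5 and 0, against 16.1% and 15.02%, with HSP90AB1 at 1.27. With a filter of 30 FPKM 8 chaperones were tested. Of these, 1 was at least 2-fold above and 1 below, HSPA1A at -1.03, against 15.6% and 22.3% of the genes tested. Per coding length, 1 was above and 3 below, against 18.2% and 16.9% of 2157 genes, with HSP90AB1 at -0.051. Scaling the libraries to the FPKM sum of rows outside the small RNA list, without centring, shifts every gene nearly alike and gave 7 above and 0 below, with a median of 1.59. The log2 ratios were then 1.76 for HSP90AB1, 0.30 for HSPA1A, 0.35 for HSPA1B, 1.70 for HSPA4, 1.30 for HSPH1, 2.23 for HSPB1, 2.72 for DNAJA1 and -0.36 for DNAJB1. In that sum 18 SNAR and MTRNR2L rows held 10.3% in ribosome profiling and 60.5% in RNA sequencing, and 55.8% of tested genes lay at least 2-fold above, against 9.25% at least 2-fold below. Those shares were 23.6% and 14.2% without centring, where 3 chaperones lay above and 1 below, against 13.1% and 19.7% with centring. Scaling to the protein-coding sum gave 2 chaperones above and 1 below, against 18.5% and 15.9% of tested genes. Depth limits DNAJB1 most, at about 21 fragments in ribosome profiling.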
